A study of Mus musculus with 25 samples.

Results

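The LTR retrotransposons of the ERVK class other than the intracisternal A particles (IAP) were measured by RNA sequencing in pools of mouse two-cell embryos. The set comprised every autosomal repeat copy that the deposited annotation assigns to LTR/ERVK, apart from those whose subfamily name marks them as IAP. It held 138601 copies in 250 subfamilies, out of 1755056 repeat copies in 1092 subfamilies on all chromosomes, and 69500 of its copies (50.1%) had at least 1 read in at least 1 library. No read count was used to choose the copies. The 25 libraries formed 11 groups, each library made from 5 to 10 embryos collected 28 to 29 h after activation or insemination. IVF embryos (4 libraries) came from C57BL/6N oocytes and DBA2 sperm. Somatic cell nuclear transfer (SCNT) embryos came from BDF1 oocytes that received BDF1 cumulus cell nuclei. Control SCNT embryos, SCNT-*Kdm3a* and SCNT-*Kdm4d* embryos (2 libraries each) were activated in cytochalasin B, and the latter 2 groups were injected with mRNA (1500 ng/µL in the labels) for KDM3A, a demethylase of mono- and dimethylated histone H3 lysine 9 (H3K9), or KDM4D, a demethylase of its di- and trimethylated forms. The other 7 groups were activated in latrunculin A (LatA): a LatA control (2 libraries), the histone deacetylase inhibitor trichostatin A (TSA, 25 nM for 8 h, 2 libraries), the G9a inhibitors RK-701 (spelled R701 in the labels, 3 libraries) and A366 (2 libraries), each at 1 µM for 24 h, and TSA with RK-701, A366 or UNC0638 (2 libraries each). All SCNT embryos were female and IVF embryos were of mixed sex, so the sex chromosomes were left out. Oocyte strain, embryo sex and procedure differed together between IVF and SCNT, and their parts in any difference cannot be told apart.

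ERVK elements are the mouse endogenous retroviruses related to betaretroviruses. A full copy has an internal region with viral genes between a pair of long terminal repeats (LTRs), the LTR carries the promoter and the polyadenylation signal, and most genomic copies are LTRs left alone after recombination. In early embryos and stem cells these elements are held silent mainly by zinc finger proteins that recruit TRIM28 and SETDB1, which trimethylates H3K9. G9a (gene *Ehmt2*) and its partner GLP (gene *Ehmt1*) lay down mono- and dimethylated H3K9. Some LTRs act as promoters in oocytes and two-cell embryos. Etn and MusD elements (MMETn-int, RLTRETN_Mm) include copies that still transpose, and MMERVK10C is a well-known target of the TRIM28 pathway.

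Of the tested copies 20 overlapped a RefSeq promoter window, from 250 bases before to 50 after a gene start, and 19 of these covered upstream bases. The covered upstream bases of 5 are shown because they place an LTR at the start of a gene; these 5 were chosen after their values were seen. Each is given 5′ to 3′ on the strand of the gene (RefSeq, GRCm38.p6), and capitals mark matches on either strand to the TATA box letters TATAAA, the CAAT box letters CCAAT or the GC box letters GGGCGG, with no overlap between matches here.
RLTR9E at Gm32587, chr14:18463360-18463609, plus strand: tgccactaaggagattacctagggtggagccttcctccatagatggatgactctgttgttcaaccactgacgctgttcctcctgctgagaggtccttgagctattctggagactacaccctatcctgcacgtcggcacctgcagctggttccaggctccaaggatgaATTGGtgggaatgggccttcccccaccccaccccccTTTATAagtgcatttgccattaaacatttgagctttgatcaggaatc
ERVB7_2B-LTR_MM at *Nat8f2*, chr6:85869205-85869387, minus strand: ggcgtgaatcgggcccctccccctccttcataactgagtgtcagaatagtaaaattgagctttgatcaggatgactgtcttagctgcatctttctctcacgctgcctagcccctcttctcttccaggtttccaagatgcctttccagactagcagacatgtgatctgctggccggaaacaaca
RLTR10A at Gm37116, chr3:88284799-88285048, minus strand: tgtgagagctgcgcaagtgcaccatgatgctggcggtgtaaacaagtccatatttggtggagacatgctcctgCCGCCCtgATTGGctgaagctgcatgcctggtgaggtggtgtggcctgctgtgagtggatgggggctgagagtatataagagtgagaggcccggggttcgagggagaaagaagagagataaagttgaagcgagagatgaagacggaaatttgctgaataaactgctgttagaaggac
RMER19B at Gm34324, chr17:63039709-63039955, plus strand with the element on the minus strand: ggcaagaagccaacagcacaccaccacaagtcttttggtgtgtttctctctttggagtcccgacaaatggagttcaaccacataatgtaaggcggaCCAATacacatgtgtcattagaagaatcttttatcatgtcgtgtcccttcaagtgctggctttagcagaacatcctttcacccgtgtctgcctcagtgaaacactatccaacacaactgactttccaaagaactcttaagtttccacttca
RLTR17 at Gm2560, chr4:14291310-14291538, minus strand: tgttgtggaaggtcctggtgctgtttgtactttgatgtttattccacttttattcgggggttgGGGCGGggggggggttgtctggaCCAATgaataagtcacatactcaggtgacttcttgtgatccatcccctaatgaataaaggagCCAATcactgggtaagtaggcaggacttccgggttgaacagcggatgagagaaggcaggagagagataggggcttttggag
Over 32851 RefSeq windows of 250 bases upstream of gene starts, 12.4% held TATAAA, 33.8% held CCAAT and 32.7% held GGGCGG. The RLTR9E stretch held TATAAA and CCAAT, those of RLTR10A and RLTR17 held CCAAT and GGGCGG, that of RMER19B held CCAAT, and that of ERVB7_2B-LTR_MM held none of the 3.

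The copies on these starts did not move as one. All levels are given in CPM, the read pair count scaled to a common number of gene reads with TMM factors. The RLTR9E copy read 1.86, 1.31, 2.27 and 1.19 CPM in the IVF libraries against 0.0968 and 0 CPM in the control SCNT libraries (log2 fold change −4.94 ± 1.23 SE, edgeR quasi-likelihood test, adjusted p = 0.013), with 1 read in the 2 SCNT libraries together. The RLTR10A copy read 3.88 to 7.91 CPM in IVF against 2.66 and 1.12 CPM in the LatA controls (−1.71 ± 0.50, adjusted p = 0.028), and the RMER19B copy 1.55 to 3.97 CPM in IVF against 0.872 and 0.478 CPM in control SCNT embryos (−2.14 ± 0.65, adjusted p = 0.036). In control SCNT embryos the RLTR10A copy averaged 2.48 ± 1.14 CPM (SD). In the LatA controls the RMER19B copy averaged 1.29 ± 0.67 CPM and the RLTR9E copy 0.287 ± 0.252 CPM. The ERVB7_2B-LTR_MM copy upstream of *Nat8f2* went the other way, at 0.775, 0.87, 1.49 and 1.05 CPM in IVF and 4.07 and 3.27 CPM in control SCNT embryos (1.78 ± 0.55, adjusted p = 0.039). In the LatA controls it read 5.32 and 4.28 CPM (2.17 ± 0.55 over IVF, adjusted p = 0.014), and with TSA and A366 1.07 and 0.135 CPM (−2.98 ± 0.71 against the LatA controls, adjusted p = 0.043). The RLTR17 copy was the most abundant of the 5, with 12.8 to 20.7 CPM in IVF and 42.7, 31.8 and 41.3 CPM under RK-701, above the 27.4 and 15.1 CPM of the LatA controls, but no comparison with a control group passed the test for it. The RLTR10A copy also lies within the bodies of Gm38392 and *Tsacc*. A read on such a copy may start in the element or run through it from elsewhere, which these counts do not separate.

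Gene reads per library ranged from 6662727 to 21188688, and the set took 0.652 to 0.998% of all gene and repeat reads. The injected mRNAs were found where the labels place them: *Kdm3a* read 3465 and 3116 CPM in SCNT-*Kdm3a* embryos and at most 266 CPM elsewhere, and *Kdm4d* read 18542 and 12540 CPM in SCNT-*Kdm4d* embryos and at most 5.08 CPM elsewhere. All 6 two-cell marker genes in the table were read, with sums of 690 to 947 CPM in IVF, 626 to 743 in control SCNT embryos, 286 to 497 in the LatA controls and 205 to 1253 CPM over the other groups. These sums hide members that went opposite ways. *Zscan4d* read 157 to 203 CPM in IVF and 7.17 and 9.17 CPM in control SCNT embryos, and *Zfp352* 271 to 337 CPM and 394 and 500 CPM. In control SCNT embryos *Zscan4c*, *Tdpoz4* and Gm8300 also lay below every IVF library, and *Usp17lc* above. Sums over 6 oocyte genes were 1091 to 1276 CPM in IVF, 477 to 547 CPM in control SCNT embryos, 402 to 503 CPM in the LatA controls, 888 to 1089 CPM with RK-701, 812 to 956 CPM in SCNT-*Kdm4d* embryos and 413 to 688.6 CPM in the remaining groups. Sums over 14 cumulus cell genes lay between 34.1 and 74.7 CPM in all groups, with *Ptx3*, *Amh*, *Inha* and *Foxl2* under the minimum for testing. The largest part was *Oosp1* in the oocyte sums (630 to 811 CPM in IVF) and *Amhr2* in the cumulus sums (27.2 to 32.9 CPM in IVF). Members differed here too. *Oosp1* read 295 and 323 CPM in control SCNT and 665 and 527 CPM in SCNT-*Kdm4d* embryos, and *Gdf9* 53.5 and 54.2 CPM and 60.9 and 52.0 CPM. The 2 LatA controls were the least alike of the replicate pairs (r = 0.941 across genes, on log2 CPM, against 0.960 to 0.984 for the others), and counts of calls are given below without either of them. The labels do not say whether libraries of a group came from separate days or females, so p-values measure the spread between these pools, which may be partly technical.

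Reads of the set were concentrated on few copies. In all 25 libraries it received 3111387 reads, of which 100 copies held 25.4%, and 20 of the 247 subfamilies with at least 25 reads had more than 50% of their reads on 1 copy. The subfamilies with the most reads were RMER19B (184268 reads on 2571 of 4081 copies), MYSERV6-int (150959), MMERVK10C-int (123796), MMETn-int (114362), RMER6A (104045) and RLTR25A (100247). Per kilobase of annotated length the order was another one. ERVB4_2-LTR_MM had 374 reads per kb over all libraries, ERVB4_3-LTR_MM 270 and RLTR25A 264, against 71.1 for RMER19B and 51.9 for MMERVK10C-int. In ERVB4_2-LTR_MM, ERVB4_3-LTR_MM and RLTR25A 61.7, 94.3 and 82.6% of the reads lay on 1 copy. RMER19B was spread out, with 3.78% of its reads on its leading copy. Gene bodies held 28.9% of the copies and 38.1% of the reads, and reads inside genes can be parts of unspliced gene transcripts. That share was 33.3 to 34.3% in IVF, 40.8 to 41.2% in control SCNT embryos and 41.5 to 42.8% in the LatA controls, so it moved with the comparison of SCNT with IVF, and sums without the copies inside gene bodies are given next.

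The summed level of the set differed little between groups. It was 8248, 9098, 9003 and 8795 CPM in the IVF libraries (8786 ± 380.0 SD, n = 4), 10368 and 9857 CPM in control SCNT embryos and 8945 and 9584 CPM in the LatA controls. Control SCNT embryos were above every IVF library, by a log2 fold change of 0.20 ± 0.07 (limma, adjusted p = 0.020), while the LatA controls overlapped the IVF range (0.08 ± 0.07, adjusted p = 0.38). The call in control SCNT embryos ended when copies inside gene bodies were left out (0.036, adjusted p = 0.66), and scaled to repeat reads the sum was lower than in IVF (−0.27, adjusted p = 0.0030). It also ended without the first control SCNT library (0.17, adjusted p = 0.15). SCNT-*Kdm3a* embryos had the highest mean, with 12468 and 10980 CPM, though the difference from control SCNT embryos did not pass (0.21 ± 0.08, adjusted p = 0.072) and turned without TMM factors (−0.081). That of SCNT-*Kdm4d* embryos was −0.21 ± 0.08 (adjusted p = 0.058). The lowest mean was that of the TSA and A366 group, with 7754 and 7686 CPM. Against the LatA controls the sum fell by 0.24 ± 0.08 on the log2 scale with RK-701 (7392, 8201 and 8015 CPM, adjusted p = 0.015) and by 0.26 ± 0.08 with TSA and A366 (adjusted p = 0.012). Both calls ended without the copies inside gene bodies (adjusted p = 0.18 and 0.074) and without the second LatA control (−0.19, adjusted p = 0.17, and −0.21, adjusted p = 0.15). That of RK-701 ended also without its first library (−0.19, adjusted p = 0.063), and that of TSA and A366 without its second (−0.26, adjusted p = 0.071). Scaled to repeat reads both differences had the other sign (0.058 and 0.21). Those with TSA and RK-701 (8167 and 7976 CPM, −0.20 ± 0.08, adjusted p = 0.055), TSA and UNC0638 (9983 and 9811 CPM, 0.10 ± 0.08, adjusted p = 0.33), A366 alone (10285 and 9378 CPM, 0.09 ± 0.08) and TSA alone (10374 and 10190 CPM, 0.15 ± 0.08) did not pass. In bulk pools a lower level per embryo and a lower level in some embryos only cannot be told apart.

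**Figure D1:**
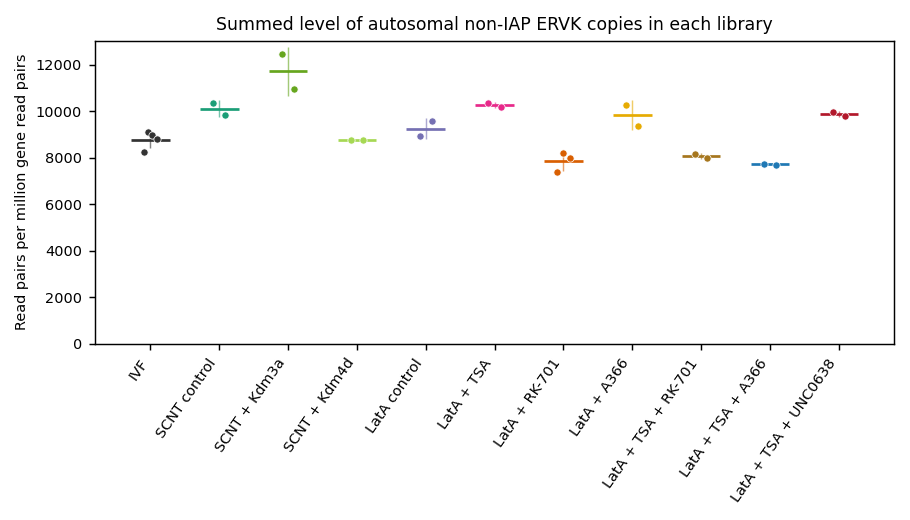
Summed level of the non-IAP ERVK copies in each of the 25 libraries, in CPM on the vertical axis, by group on the horizontal axis (points, libraries; bars, group means). Both SCNT-*Kdm3a* libraries (12468 and 10980 CPM) lie above all the others, and the 2 TSA and A366 libraries (7754 and 7686 CPM) lie below all libraries except 1 of RK-701 (7392 CPM).

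Within the endogenous retroviruses the set and IAP did not differ alike between IVF and the control groups. The ratio of the set to IAP was higher than in IVF by 0.40 ± 0.09 on the log2 scale in control SCNT embryos (adjusted p = 0.00091) and by 0.38 ± 0.09 in the LatA controls (adjusted p = 0.0017). The ratio to ERV1, another retrovirus class, was 0.18 ± 0.08 higher in control SCNT embryos (adjusted p = 0.037). TSA with UNC0638 took the ratio to IAP the other way, 0.42 ± 0.11 lower than in the LatA controls (adjusted p = 0.0031), as the IAP sum rose by 0.52 ± 0.13 (adjusted p = 0.0031) and that of the set did not pass. A ratio shows unequal change and does not by itself say which of its 2 parts changed. The ratios include copies inside gene bodies and were not tested without them. The IAP sum had means of 910 CPM in IVF, 791 CPM in control SCNT embryos and 738 CPM in the LatA controls. Those of the set were 8786, 10112.5 and 9265 CPM.

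For the comparison of SCNT with IVF, which asks which elements differ between these embryos, 247 subfamilies had a mean of at least 1 read and were tested together with all other repeat subfamilies, 846 in all. In control SCNT embryos 68 of the 247 were higher and 10 lower than in IVF (adjusted p under 0.05), against 28.4% higher and 4.85% lower over all 846 (33.2% in either direction). In the LatA controls 42 were higher and 14 lower, against 21.7% and 6.74% over all. The shares of members (27.5% and 17% higher) were thus close to or below those of all repeats. Repeats as a whole shifted against gene reads: the median log2 fold change over all subfamilies was 0.44 in control SCNT embryos and 0.33 in the LatA controls, and that of the members 0.32 and 0.16. Scaled to repeat reads in place of gene reads, 11 members were higher and 49 lower in control SCNT embryos, and 21 higher and 52 lower in the LatA controls. The direction of the majority is therefore a matter of the reference, and the subfamilies named next kept their sign under either one. Without the first control SCNT library 35 members were called, and without the second LatA control 29. Of 16 called subfamilies chosen for naming, 7 and 5 no longer passed without the first and the second control SCNT library, and of 21 in the LatA controls 3 and 13 without the first and the second of those.

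**Figure D2:**
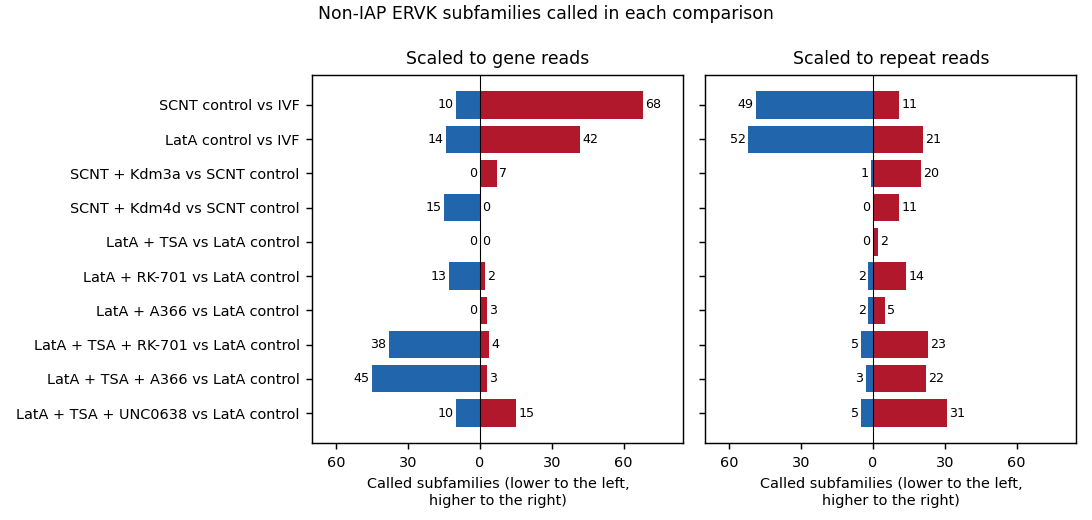
Number of non-IAP ERVK subfamilies called higher (above 0) and lower (below 0) at adjusted p under 0.05 out of 247 tested, for 10 comparisons, scaled to gene reads (left) and to repeat reads (right). Control SCNT embryos against IVF give 68 higher and 10 lower with gene reads, and 11 higher and 49 lower with repeat reads.

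The higher members came from several LTR groups. Of 42 tested RMER subfamilies 18 were higher and none lower in control SCNT embryos (median log2 fold change 0.50), of 69 RLTR subfamilies outside the named groups 21 were higher and 3 lower, and of 23 subfamilies of the remaining names 11 were higher and none lower (median 0.52), beside 28.4% higher and 4.85% lower and a median of 0.44 over all subfamilies. With repeat reads as reference these groups had 3 higher and 10 lower, 5 and 7, and 1 and 1, against 8.98% and 14.8% over all. RMER6A read 225, 251, 267 and 234 CPM in IVF, 393 and 319 CPM in control SCNT embryos and 319 and 352 CPM in the LatA controls. The groups did not overlap (0.55 ± 0.13, adjusted p = 0.0018, and 0.46 ± 0.13, adjusted p = 0.0092), though scaled to repeat reads neither difference passed (0.07 and 0.13). Nor did they pass without the first control SCNT library (0.39, adjusted p = 0.093) or without the second LatA control (0.39, adjusted p = 0.12). RLTR34D_MM rose from 2.79, 4.29, 5.12 and 4.04 CPM in IVF to 14.7 and 10.7 CPM (1.61 ± 0.34, adjusted p = 0.00071) and to 12.9 and 6.33 CPM in the LatA controls (1.23 ± 0.34, adjusted p = 0.0083), the latter call ending without the first LatA control (0.61, adjusted p = 0.29). MLTR13 read at most 1.53 CPM in IVF and 5.13 and 4.55 CPM in control SCNT embryos (2.24 ± 0.50, adjusted p = 0.0013). RLTR31_Mur (0.98 ± 0.26), MLTR31E_MM (1.29 ± 0.36) and RLTR20A2 (1.08 ± 0.33) were likewise higher, with adjusted p of 0.0045, 0.0081 and 0.013. These 3 no longer passed when scaled to repeat reads or without the first control SCNT library (adjusted p of 0.069, 0.13 and 0.070).

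ERVB4_3-LTR_MM had the largest excess over IVF among the named subfamilies, and it came from a single locus. It read 1.86, 0.932, 2.85 and 1.53 CPM in IVF against 47.8 and 35.0 CPM in control SCNT embryos (4.53 ± 0.23, adjusted p = 2.6e-13) and 44.8 and 53.0 CPM in the LatA controls (4.77 ± 0.23, adjusted p = 7.3e-14). Its leading copy, chr6:130936777-130937223 (mm10, plus strand), lies outside gene bodies, 2025 bp from Gm44988 and 282000 bp from *Klra2*. That copy had no read in any IVF library and 25.9 to 54.5 CPM in every SCNT library. Counted against a floor of 3 reads over the IVF group, it was at least 674-fold higher in control SCNT embryos and at least 801-fold higher in the LatA controls. No treatment brought it near the IVF level, and in all 5 treated groups that were compared with IVF the subfamily stayed higher (log2 fold changes of 4.01 with TSA and RK-701 to 4.33 with TSA and UNC0638). Oocyte strain and embryo sex differed along with procedure here too, and their parts cannot be told apart.

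RLTR25A was high in most but not all SCNT libraries. It read 60.001, 76.5, 81.6 and 69.6 CPM in IVF and 427 and 444 CPM in control SCNT embryos (2.60 ± 0.50, adjusted p = 0.00029). The LatA controls read 71.6 and 473 CPM, 1 library at the IVF level and the other at the SCNT level, and the call against IVF (1.91 ± 0.50, adjusted p = 0.0053) rested on the second library, without which the log2 fold change was −0.00932. Low values also appeared in 1 library of RK-701 (64.2, with 181 and 179 CPM in the others) and in 1 of TSA and A366 (77.2, with 377 CPM in the other). Most of its reads lay on chr1:24848021-24848281 (minus strand), outside gene bodies and 62180 bp from Gm28594, with 27.8 to 44.5 CPM in IVF and 358 and 371 CPM in control SCNT embryos.

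Fewer subfamilies fell, among them 2 of 15 MMERVK and 2 of 12 RLTR9 subfamilies. MMERVK10D3_I-int read 58.1, 66.4, 50.05 and 58.7 CPM in IVF and 18.8 and 16.7 CPM in control SCNT embryos (−1.72 ± 0.21, adjusted p = 3.5e-06), with 13.9 and 18.9 CPM in the LatA controls (−1.84 ± 0.21, adjusted p = 1.5e-06). RLTR13A read 12.1 to 14.9 CPM in IVF, 3.78 and 3.03 CPM in control SCNT embryos (−2.01 ± 0.32, adjusted p = 6.5e-05) and 1.90 and 3.54 CPM in the LatA controls (−2.36 ± 0.33, adjusted p = 1.6e-05). RLTR9E, of an LTR group bound by pluripotency factors in embryonic stem cells, read 137, 143, 148 and 153 CPM in IVF against 61.9 and 62.8 CPM in control SCNT embryos (−1.22 ± 0.17, adjusted p = 1.6e-05) and 69.2 and 85.1 CPM in the LatA controls (−0.91 ± 0.17, adjusted p = 0.00024). For all 3 every IVF library lay above every control. RLTR50B (15.7 to 17.03 CPM in IVF, 6.97 and 6.94 CPM in control SCNT embryos, −1.21 ± 0.27, adjusted p = 0.0012) and RLTR9A3B (7.13 to 12.8 against 6.00 and 5.74 CPM, −0.94 ± 0.29, adjusted p = 0.015) were lower too, the latter not without either control SCNT library (adjusted p = 0.080 and 0.095). In the LatA controls RLTR13D1 fell (8.56 to 11.3 against 4.78 and 1.40 CPM, −1.63 ± 0.35, adjusted p = 0.0012). RLTR19D had no read in either LatA control against 76 reads in IVF, at least 14.1-fold lower. The LatA controls and the control SCNT embryos were compared directly with no subfamily passing in edgeR (25 of 247 at an unadjusted p under 0.05), so a difference between the 2 controls was not shown.

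**Figure D3:**
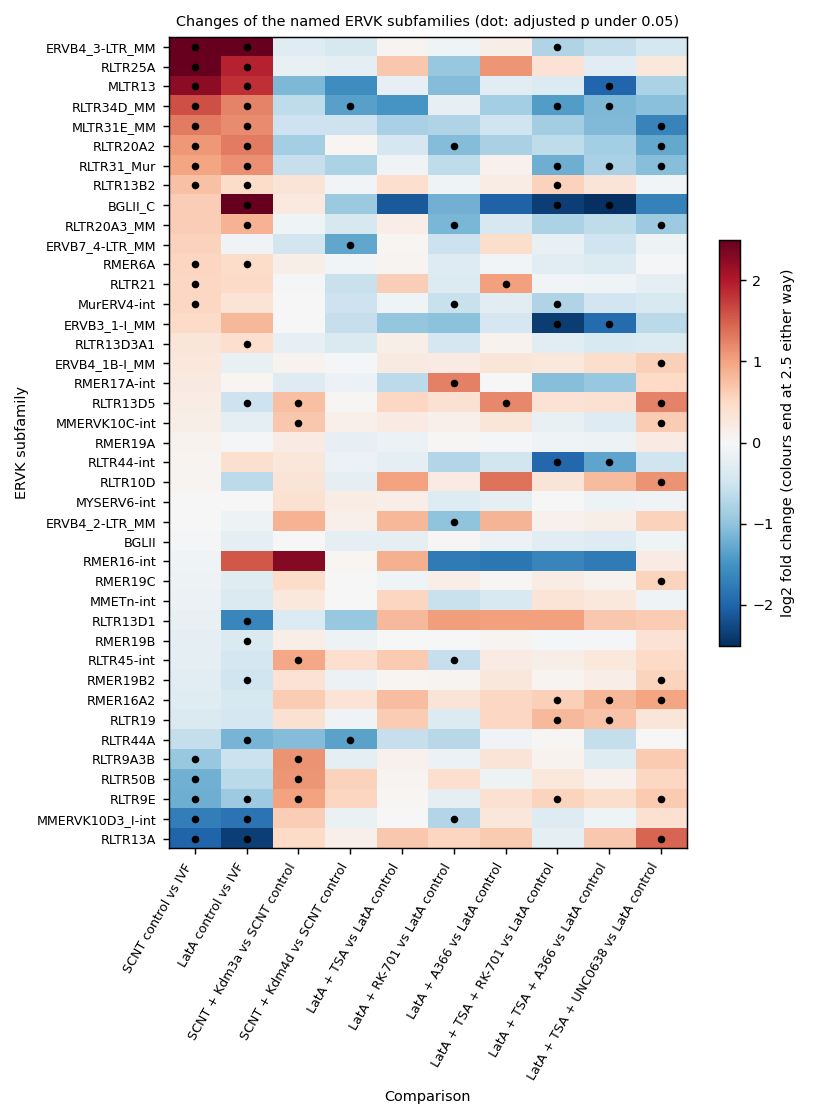
Log2 fold change (colour) of 41 named non-IAP ERVK subfamilies (rows, ordered by control SCNT embryos against IVF) in 10 comparisons (columns), with a dot where adjusted p was under 0.05. ERVB4_3-LTR_MM (4.53) and RLTR25A (2.60) stand at the high end, RLTR13A (−2.01) and MMERVK10D3_I-int (−1.72) at the low end.

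Injection of *Kdm3a* mRNA into SCNT embryos raised 7 of the 247 subfamilies and lowered none, against 3.55% higher and 0.827% lower over all 846 (4.37% in either direction), so the share of members (2.83%) was below that of all repeats. The median log2 fold change of the members was 0.00 and that of all subfamilies −0.07. With repeat reads as reference 20 were higher and 1 lower. Leaving out the second control SCNT library left 1 call, leaving out the first SCNT-*Kdm3a* library 4, and leaving out the second 11. Of the 6 named subfamilies that were called, 5 no longer passed without the second control SCNT library, 5 without the first SCNT-*Kdm3a* library and 2 without the first control SCNT library. Without TMM factors MMERVK10C-int, RLTR13D5, RLTR50B and RLTR9A3B no longer passed. RLTR9E rose from 61.9 and 62.8 to 147 and 103 CPM (1.00 ± 0.19, adjusted p = 0.0021). RLTR50B rose from 6.97 and 6.94 to 17.4 and 12.1 CPM (1.10 ± 0.30, adjusted p = 0.032) and RLTR9A3B from 6.00 and 5.74 to 15.3 and 10.1 CPM (1.12 ± 0.32, adjusted p = 0.049). In each of these 3 at least 1 SCNT-*Kdm3a* library reached the lowest IVF library.

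Other members rose above the IVF range. RLTR45-int read 211 and 196 CPM in control SCNT embryos and 397 and 400 CPM in SCNT-*Kdm3a* embryos (0.97 ± 0.20, adjusted p = 0.0047), with 202 to 261 CPM in IVF. Most of this came from a pair of adjoining stretches outside gene bodies near Gm37596, chr3:93694861-93696978 (54.7 and 66.3 to 160 and 165 CPM, 1.42 ± 0.29, adjusted p = 0.019) and chr3:93696972-93699428 (46.1 and 40.2 against 103 and 103 CPM, which missed the test), both on the minus strand. The leading copy of ERVB4_2-LTR_MM, chr3:93694347-93694860, adjoins the first of them. MMERVK10C-int, the internal region of a provirus family, read 416 and 357 CPM in control SCNT embryos and 665 and 574 CPM with *Kdm3a* (0.68 ± 0.16, adjusted p = 0.014), against 324 to 391 CPM in IVF (0.82 ± 0.14 over IVF, adjusted p = 0.00026). Its copy with the most reads, chr13:92617360-92624989, lies on the minus strand within the body of *Serinc5*, a plus-strand gene, and touches no annotated exon. It rose from 102 and 74.1 to 249 and 231 CPM (1.45 ± 0.31, adjusted p = 0.028). RLTR13D5, an LTR known as an enhancer in trophoblast stem cells, rose from 26.5 and 22.0 to 43.1 and 38.1 CPM (0.74 ± 0.19, adjusted p = 0.022). Most of this rise lay on the copy chr7:20938035-20939041, with means of 3.22 CPM in control SCNT embryos and 17.8 CPM with *Kdm3a*. The two-cell marker sum was also higher in these libraries (1031 and 1247 against 626 and 743 CPM), and its part in the result was not tested.

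*Kdm4d* mRNA did not have the same effect on the subfamilies. None rose and 15 fell, against 0.946% and 10.3% over all subfamilies (members 6.07% lower), and with repeat reads as reference 11 rose and none fell. The 15 calls were not stable to single libraries: 2 were left without the first and 4 without the second control SCNT library, and none without either SCNT-*Kdm4d* library. RLTR34D_MM fell from 14.7 and 10.7 to 5.40 and 4.49 CPM (−1.36 ± 0.40, adjusted p = 0.034), RLTR44A from 4.07 and 3.83 to 1.94 and 1.19 CPM (−1.34 ± 0.42, adjusted p = 0.042) and ERVB7_4-LTR_MM from 8.23 and 8.77 to 4.11 and 2.80 CPM (−1.30 ± 0.36, adjusted p = 0.024). None of these 3 passed when scaled to repeat reads, or when any 1 of the 4 libraries was left out. RLTR9E read 89.5 and 92.7 CPM, which missed the test against control SCNT embryos, and it was lower than in IVF (−0.67 ± 0.17, adjusted p = 0.014). Compared directly, SCNT-*Kdm4d* embryos had 9 members lower than SCNT-*Kdm3a* embryos and none higher, against 2.84% lower over all subfamilies. RLTR13D5 (24.2 and 25.5 against 43.1 and 38.1 CPM, −0.71 ± 0.19, adjusted p = 0.045) and RLTR9A3B (6.45 and 3.58 against 15.3 and 10.1 CPM, −1.35 ± 0.33, adjusted p = 0.036) were among them. The summed set was 0.42 ± 0.08 lower with *Kdm4d* than with *Kdm3a* (log2, adjusted p = 0.0015). Scaled to repeat reads no member was called in edgeR and the sums differed by −0.074 (adjusted p = 0.55). With 1 library left out 0 to 45 members were called, and RLTR13D5 and RLTR9A3B passed only without the second SCNT-*Kdm3a* library.

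**Figure D4:**
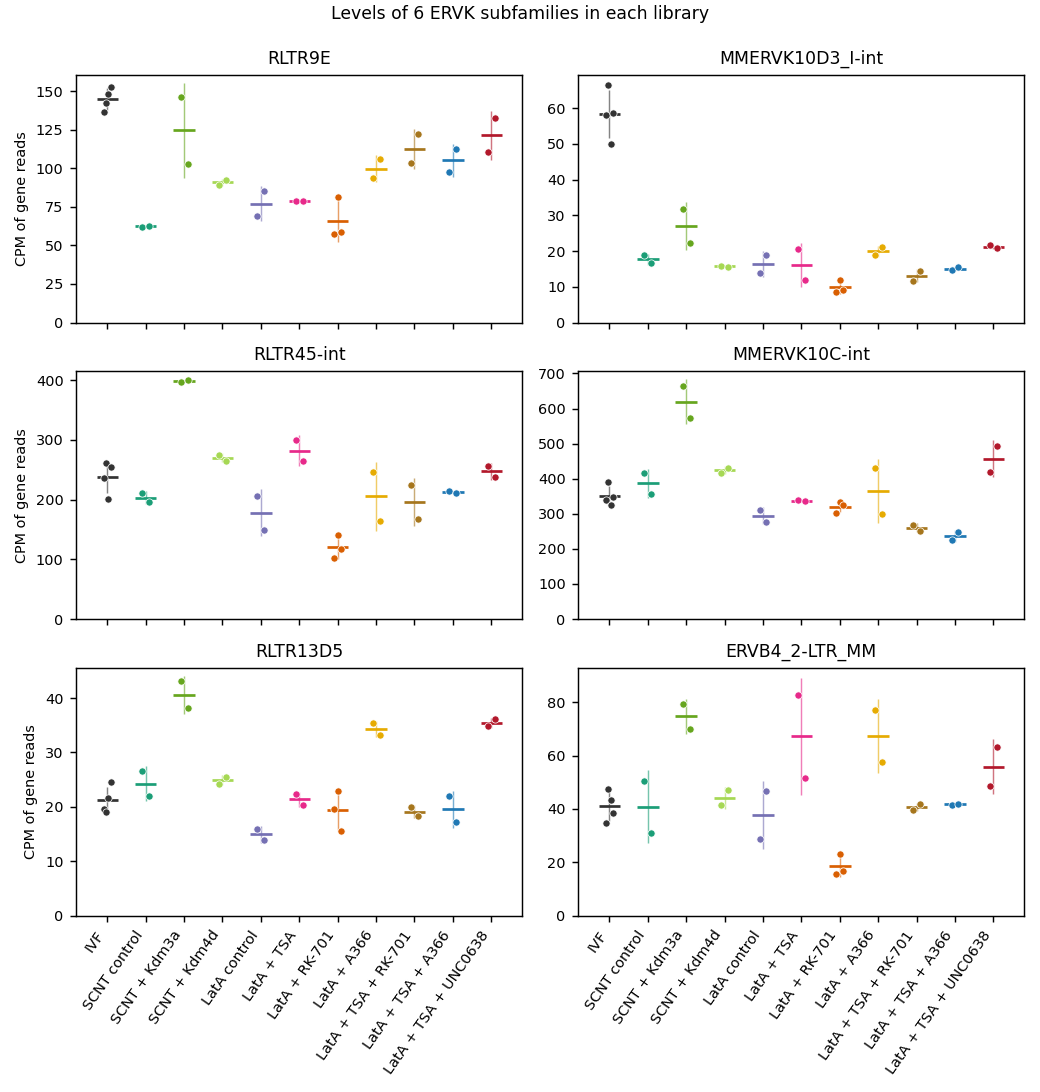
Level in CPM (vertical axes, from 0) of 6 non-IAP ERVK subfamilies in 11 groups of embryos (points, libraries; bars, means; lines, SD). RLTR9E is high in the 4 IVF libraries (137 to 153 CPM) and in the first SCNT-*Kdm3a* library. MMERVK10D3_I-int is highest in IVF (50.05 to 66.4 CPM), RLTR45-int and MMERVK10C-int in SCNT-*Kdm3a* embryos, and ERVB4_2-LTR_MM is lowest with RK-701 (15.8 to 23.3 CPM).

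TSA alone moved no subfamily past the test in edgeR, with 32 of 247 at an unadjusted p under 0.05, 1 by DESeq2, and 0.473% called over all subfamilies. RK-701 alone raised 2 members and lowered 13, against 0.709% and 8.63% over all (9.34% in either direction, members 0.81% and 5.26%), while with repeat reads as reference 14 rose and 2 fell. The count depended on the LatA controls, with 34 calls without the first and 0 without the second, and with 4, 9 and 4 calls without each RK-701 library in turn. Of 8 named subfamilies called, 3 no longer passed without the first LatA control and all 8 without the second. ERVB4_2-LTR_MM, the densest subfamily per kilobase, read 28.7 and 46.7 CPM in the LatA controls and 15.8, 23.3 and 16.9 CPM with RK-701 (−1.01 ± 0.24, adjusted p = 0.0086). RLTR20A3_MM fell from 15.0 and 24.2 to 8.51, 9.06 and 8.94 CPM (−1.14 ± 0.26, adjusted p = 0.0080). RLTR45-int fell from 206 and 150 to 101, 140 and 118 CPM (−0.57 ± 0.18, adjusted p = 0.048), and MMERVK10D3_I-int from 13.9 and 18.9 to 8.57, 11.8 and 9.11 CPM (−0.74 ± 0.22, adjusted p = 0.036), further from IVF. The leading copies of ERVB4_2-LTR_MM and RLTR45-int adjoin, as given above, so their changes may not be independent. RMER17A-int went up, from 13.9 and 10.8 to 37.3, 21.1 and 30.7 CPM (1.26 ± 0.38, adjusted p = 0.040), a level seen in no other group except in 1 TSA and UNC0638 library (25.7 CPM). The oocyte marker sum was higher with RK-701 (888 to 1089 against 402 to 503 CPM), and its part was not tested.

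A366 alone raised 3 members and lowered none, against 0.709% and 0.118% over all subfamilies (5 higher and 2 lower with repeat reads). RLTR13D5 rose from 16.0 and 13.9 to 35.4 and 33.3 CPM (1.20 ± 0.19, adjusted p = 0.0016) and RLTR21 from 122 and 191 to 361 and 276 CPM (1.03 ± 0.23, adjusted p = 0.019). The other was RLTR19D, with 35 reads against none in the LatA controls, at least 12.8-fold higher. Without the second LatA control 9 members were called, and without the first A366 library 1, and without TMM factors RLTR21 no longer passed. Nor did RLTR21 pass without the first LatA control (0.74, adjusted p = 0.30) or the first A366 library (0.82, adjusted p = 0.26). At the same dose and time the 2 inhibitors differed: with A366 38 members were higher and 7 lower than with RK-701, against 16.8% and 2.13% over all subfamilies. ERVB4_2-LTR_MM read 77.1 and 57.5 CPM with A366, apart from all RK-701 values (1.85 ± 0.24, adjusted p = 1.9e-05). RLTR21 (1.36 ± 0.20, adjusted p = 0.00021), RLTR13D5 (0.82 ± 0.17, adjusted p = 0.0021), MMERVK10D3_I-int (1.03 ± 0.21, adjusted p = 0.0022), RLTR45-int (0.78 ± 0.18, adjusted p = 0.0043) and RLTR19 (0.86 ± 0.21, adjusted p = 0.0078) were also higher with A366, and RMER17A-int was lower (−1.27 ± 0.38, adjusted p = 0.022). The changes of ERVB4_2-LTR_MM and RLTR45-int again may not be independent. The summed set was 0.32 ± 0.08 higher (log2, adjusted p = 0.0017). Scaled to repeat reads 12 members were higher and 22 lower, the sums differed by −0.031 (adjusted p = 0.74), and RLTR13D5, RLTR45-int and RLTR19 no longer passed. With 1 library left out 16 to 36 members were called, and the calls of RLTR19, RLTR45-int and RMER17A-int ended in 1 or more of the 5 cases.

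Added to TSA, no difference between the same 2 inhibitors was called. TSA with RK-701 raised 4 members and lowered 38 relative to the LatA controls, and TSA with A366 raised 3 and lowered 45, against 2.13% and 19% and against 1.89% and 21.3% over all subfamilies (members 15.4% and 18.2% lower). With repeat reads as reference 23 rose and 5 fell, and 22 rose and 3 fell. The direct comparison of the 2 had no call in edgeR among members or among all subfamilies (14 members at an unadjusted p under 0.05), with a difference of the sums of −0.06 (95% interval −0.24 to 0.11 on the log2 scale). The difference between A366 and RK-701 was itself lower with TSA than without in 6 members and higher in none (edgeR interaction test, chosen after the values were seen), against 2.36% lower over all subfamilies (members 2.43%). ERVB4_2-LTR_MM (−1.82 ± 0.35, adjusted p = 0.011) and RLTR21 (−1.39 ± 0.31, adjusted p = 0.011) were among the 6, and for the summed set this was −0.39 ± 0.12 (limma, adjusted p = 0.013). The counts against the LatA controls share the 2 LatA control libraries as reference. With the second of them left out the counts were 10 and 17, and with the first left out 50 and 62. With 1 treated library left out they were 4 and 17 for RK-701 and 8 and 13 for A366. Of 11 named subfamilies called with TSA and RK-701, 6 and 7 no longer passed without the first and the second LatA control, and of 9 with TSA and A366 4 and 6. The lowered members included ERVB3_1-I_MM, an internal region, at 14.4 and 4.38 CPM in the LatA controls, 2.01 and 1.67 CPM with TSA and RK-701 (−2.37 ± 0.48, adjusted p = 0.0026) and 1.57 and 3.45 CPM with TSA and A366 (−1.92 ± 0.46, adjusted p = 0.0049). RLTR44-int read 8.90 and 20.9 CPM in the controls and 3.01 and 4.53 CPM (−1.95 ± 0.42, adjusted p = 0.0036) and 7.51 and 4.26 CPM (−1.32 ± 0.40, adjusted p = 0.021) in the 2 groups. RLTR34D_MM fell in both (−1.39 ± 0.41 and −1.13 ± 0.40), as did RLTR31_Mur (−1.22 ± 0.30 and −0.82 ± 0.30).

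A few members rose with both pairs of drugs. RLTR19 read 68.0 and 123 CPM in the LatA controls, 148 and 185 CPM with TSA and RK-701 (0.81 ± 0.24, adjusted p = 0.019) and 152 and 159 CPM with TSA and A366 (0.71 ± 0.24, adjusted p = 0.035), without overlap. RMER16A2 rose as well (0.59 ± 0.21, adjusted p = 0.046, and 0.83 ± 0.21, adjusted p = 0.0067), but without its leading copy the log2 fold changes of RMER16A2 were 0.091 and −0.047. Without the second LatA control neither rise of RMER16A2 passed (0.51, adjusted p = 0.24, and 0.75, adjusted p = 0.068). RLTR9E rose with TSA and RK-701, from 69.2 and 85.1 to 103 and 122 CPM (0.55 ± 0.19, adjusted p = 0.039), and read 97.6 and 113 CPM with TSA and A366, which missed the test. All 4 values stayed below the lowest IVF library. With gene totals not scaled by TMM, RLTR9E, RLTR19 and the rise of RMER16A2 with RK-701 no longer passed. The joint effect of TSA and A366 was lower than the sum of the single ones in 16 members and higher in none, against 5.91% and 0.355% over all subfamilies, with RLTR13D5 (−1.33 ± 0.27, adjusted p = 0.0088) and RLTR21 (−1.76 ± 0.32, adjusted p = 0.0041) among them. For TSA and RK-701 no member passed this interaction test in edgeR (24 at an unadjusted p under 0.05).

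TSA with UNC0638 gave a different pattern, with 15 members higher and 10 lower than the LatA controls, against 5.44% and 5.67% over all (members 6.07% and 4.05%; 31 higher and 5 lower with repeat reads). Without the second LatA control 11 were called, and without the first and the second UNC0638 library 7 and 8. Of 14 named subfamilies called, 7 and 9 no longer passed without the first and the second LatA control. Of 12 RLTR9 subfamilies 4 rose and none fell (median log2 fold change 0.60), and of 15 MMERVK subfamilies 3 rose and none fell (median 0.29), with 7 and 4 higher when scaled to repeat reads (9.34% over all). RLTR9E read 110 and 132 CPM against 69.2 and 85.1 CPM (0.66 ± 0.19, adjusted p = 0.026), still below all IVF libraries. RLTR13D5 reached 34.8 and 36.1 CPM (1.24 ± 0.19, adjusted p = 0.00031), above all IVF libraries (19.1 to 24.6 CPM). Its chromosome 7 copy had means of 0.733 CPM in the LatA controls and 13.7 CPM with TSA and UNC0638. RLTR13A rose from 1.90 and 3.54 to 7.92 and 6.62 CPM (1.45 ± 0.36, adjusted p = 0.012), the highest of any SCNT group and below all IVF libraries (12.1 to 14.9 CPM). MMERVK10C-int rose from 311 and 277 to 420 and 494 CPM (0.64 ± 0.16, adjusted p = 0.016). Compared with TSA and RK-701 16 members were higher and 1 lower, against 4.96% and 0.236% over all, with MMERVK10C-int (0.81 ± 0.16, adjusted p = 0.0074), RLTR13A (1.69 ± 0.36, adjusted p = 0.0096) and RLTR13D5 (0.89 ± 0.19, adjusted p = 0.0096) among the higher ones. Scaled to repeat reads 5 were higher and 1 lower, RLTR13A among them but neither MMERVK10C-int nor RLTR13D5, and with 1 library left out 0 to 5 members were called. The summed set was 0.29 ± 0.08 higher than with TSA and RK-701 (log2, adjusted p = 0.010), and 0.020 higher when scaled to repeat reads. The two-cell marker sum was 1153 to 1253 CPM in these libraries against 317 to 385 CPM with TSA and RK-701, and its part was not tested.

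The mRNA-injected groups and those given TSA with RK-701, A366 or UNC0638 were also compared with IVF to see how far their elements remained from it. The groups given TSA, RK-701 or A366 alone were not tested against IVF. SCNT-*Kdm3a* embryos had 54 members higher and 5 lower than IVF, against 23.5% and 1.65% over all subfamilies, and SCNT-*Kdm4d* embryos 9 higher and 10 lower, against 3.55% and 3.66% (7.21% in either direction). TSA with RK-701 left 8 higher and 23 lower (3.07% and 6.74% over all, 9.81% in either direction), TSA with A366 5 higher and 27 lower (1.77% and 8.27%), and TSA with UNC0638 12 higher and 3 lower (5.56% and 2.01%, 7.57% in either direction). MMERVK10D3_I-int and RLTR13A were lower than in IVF in 5 of 5 and 4 of 5 of these groups, at log2 fold changes of −1.10 to −2.16 and −1.50 to −2.60. RLTR9E was lower in SCNT-*Kdm4d* embryos only among the 5, a difference between the groups that was not tested. SCNT-*Kdm4d* embryos and TSA with RK-701 did not differ in any member in edgeR (24 at an unadjusted p under 0.05).

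Of 10 ETn and MusD subfamilies 2 were higher and 1 lower in control SCNT embryos than in IVF, and 4 fell with *Kdm4d* (median log2 fold change −0.27), against 10.3% over all subfamilies. None of the 10 fell with *Kdm4d* when scaled to repeat reads. MMETn-int read 331.5 to 487 CPM in IVF, 320 and 389 CPM in control SCNT embryos and 167, 277 and 180 CPM with RK-701, and passed in no comparison. Of 23 RLTR13 subfamilies 7 were higher and 1 lower in control SCNT embryos. Of 27 RLTR17, RLTR19 and RLTR20 subfamilies 6 were higher and none lower, where 28.4% of all subfamilies were higher and 4.85% lower. MMTV-int, the internal region of mouse mammary tumour virus, had at most 0.471 CPM in any library. Of 35 internal regions 6 were higher and 3 lower in control SCNT embryos, and of 212 LTRs 62 and 7. With TSA and RK-701 9 internal regions and 29 LTRs fell, against 19% over all, and a difference between the 2 kinds was not tested. RMER16-int was unlike all other members. It read 86.9 to 195 CPM in 21 libraries but 621 in the first LatA control, 943 in the second SCNT-*Kdm3a* library, 1240.0 in the second TSA library and 703 CPM in the first TSA and UNC0638 library. The difference lay on chr15:82768121-82768349 (plus strand, 3938 bp from *Cyp2d40*), with 504, 807, 1124 and 581 CPM in these 4 libraries and at most 0.372 CPM in the other 21. The rest of the subfamily read 86.9 to 195 CPM in all 25. The 4 libraries belong to 4 groups whose other libraries lack the signal, so it followed no label.

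Single copies were tested where they had a mean of at least 5 reads, which held for 3743 members with 75.9% of the reads of the set, and were called at adjusted p under 0.05 and a fold change over 2. In control SCNT embryos 252 copies in 106 subfamilies were higher and 193 in 79 subfamilies lower than in IVF, against 7.73% and 4.5% of all 46280 repeat copies tested (members 6.73% and 5.16%). The LatA controls had 238 higher and 233 lower, against 7.65% and 5.43% (members 6.36% and 6.22%). Without the first control SCNT library 152 single copies were called, and without the second LatA control 146. Fewer copies were called for the treatments, each with 2 or 3 libraries against 2, and at an unadjusted p under 0.05 there were 437 to 623 of the 3743 for a treatment against 1098 and 1091 for the comparisons with IVF. With the call as above, 37 copies rose and 3 fell with *Kdm3a* (0.694% and 0.169% over all), 11 and 4 with *Kdm4d* (0.184% and 0.0735%), 4 and none with TSA (0.0562% and 0.00648%), 4 and 5 with RK-701 (0.0778% and 0.307%) and 7 and none with A366 (0.112% and 0.00864%). TSA with RK-701 raised 13 and lowered 4 (0.385% and 0.151%), with A366 24 and 16 (0.62% and 0.588%), and with UNC0638 39 and 9 (0.985% and 0.199%). Counts for the treatments moved by more than 1.5 times when single libraries were left out. The most marked case was RK-701, with 75 calls without the first LatA control and 1 without the second.

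Some copies read in IVF had no read in the 4 control libraries. The RMER19B2 copy chr15:89630335-89630929 (minus strand, outside gene bodies, 38412 bp from *Rabl2*) read 7.13, 4.41, 4.34 and 4.25 CPM in IVF and had no read in 20 of the 21 SCNT libraries (0.0701 CPM in the other). It was at least 35.7-fold lower in control SCNT embryos and at least 45.5-fold lower in the LatA controls, and no treatment raised it. The RLTR50B copy chr1:5311107-5311537 (plus strand, 1090 bp from Gm37567) read 4.93 to 6.34 CPM in IVF and had no read in the 4 control libraries (at least 42.8-fold and 54.6-fold lower). It was raised by *Kdm3a* to 3.67 and 1.45 CPM (at least 21.5-fold, adjusted p = 0.013), by TSA with A366 to 1.22 and 1.62 CPM (at least 13.9-fold, adjusted p = 0.022) and by TSA with UNC0638 to 3.29 and 1.32 CPM (at least 22.1-fold, adjusted p = 0.011). The RLTR9E copy chr13:66599505-66599918 (plus strand, 7492 bp from Gm49532) read 1.53 to 2.53 CPM in IVF and none in the controls (at least 15.4-fold and 19.7-fold lower), and was raised by *Kdm4d* to 1.94 and 3.44 CPM (at least 20.9-fold, adjusted p = 0.035), by TSA with RK-701 to 0.232 and 2.37 CPM (at least 13.2-fold, adjusted p = 0.043) and by TSA with A366 to 2.15 and 1.89 CPM (at least 19.6-fold, adjusted p = 0.020). With TSA and RK-701 it had 3 and 34 reads, and that call ended without the second library. The opposite pattern was seen at the RMER12C copy chr5:128966169-128966554 (plus strand, 12683 bp from *Rimbp2*), with no read in IVF and 1.08 to 4.62 CPM in every SCNT library (at least 51.1-fold and 53.8-fold higher in the 2 control groups).

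The RLTR13D5 copy chr7:20938035-20939041 (minus strand, 250 bp from Gm4526 and outside gene bodies) rose under every LatA treatment. Its reads are part of the RLTR13D5 subfamily levels given above. It read 3.88, 4.35, 5.77 and 6.00 CPM in IVF, 4.45 and 1.99 CPM in control SCNT embryos and 0.814 and 0.652 CPM in the LatA controls, the latter lower than IVF (−2.75 ± 0.45, adjusted p = 0.00073). With TSA it read 3.31 and 6.09 CPM (2.65 ± 0.48, adjusted p = 0.036), with RK-701 4.04, 6.35 and 4.34 CPM (2.71 ± 0.46, adjusted p = 0.016) and with A366 9.23 and 12.7 CPM (3.87 ± 0.49, adjusted p = 0.0012). The 3 double treatments gave 2.78 to 4.12 CPM with RK-701 (2.21 ± 0.48, adjusted p = 0.037), 3.79 to 5.29 CPM with A366 (2.60 ± 0.48, adjusted p = 0.011) and 13.2 to 14.2 CPM with UNC0638 (4.19 ± 0.50, adjusted p = 0.00058). All share the 2 low LatA controls as reference, in which this copy had only 15 and 7 reads. Not every call was stable to single libraries. For RK-701 it was lost without the third library of that drug, and for TSA without the first LatA control. When both drugs were given, it was lost without the second treated library. The highest values were those of SCNT-*Kdm3a* embryos, 20.9 and 14.7 CPM (2.47 ± 0.45 over control SCNT embryos, adjusted p = 0.011). The MYSERV-int copy chr17:35430336-35430828, outside gene bodies and nearest to the histocompatibility gene *H2-Q6*, read 10.3 to 13.1 CPM in IVF, 2.42 and 0 CPM in control SCNT embryos (−3.24 ± 0.82, adjusted p = 0.014) and 0.326 and 0.465 CPM in the LatA controls (−4.83 ± 0.91, adjusted p = 0.0023). It rose with all 3 double treatments, to 7.03 and 8.09 CPM (adjusted p = 0.041), 8.80 and 7.91 CPM (adjusted p = 0.024) and 15.0 and 8.83 CPM (adjusted p = 0.015) for RK-701, A366 and UNC0638, while 6.36 and 4.57 CPM with TSA, 1.12, 1.69 and 4.09 CPM with RK-701 and 4.78 and 2.40 CPM with A366 missed the test. The call of this copy with TSA and RK-701 ended without the second library of that group.

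**Figure D5:**
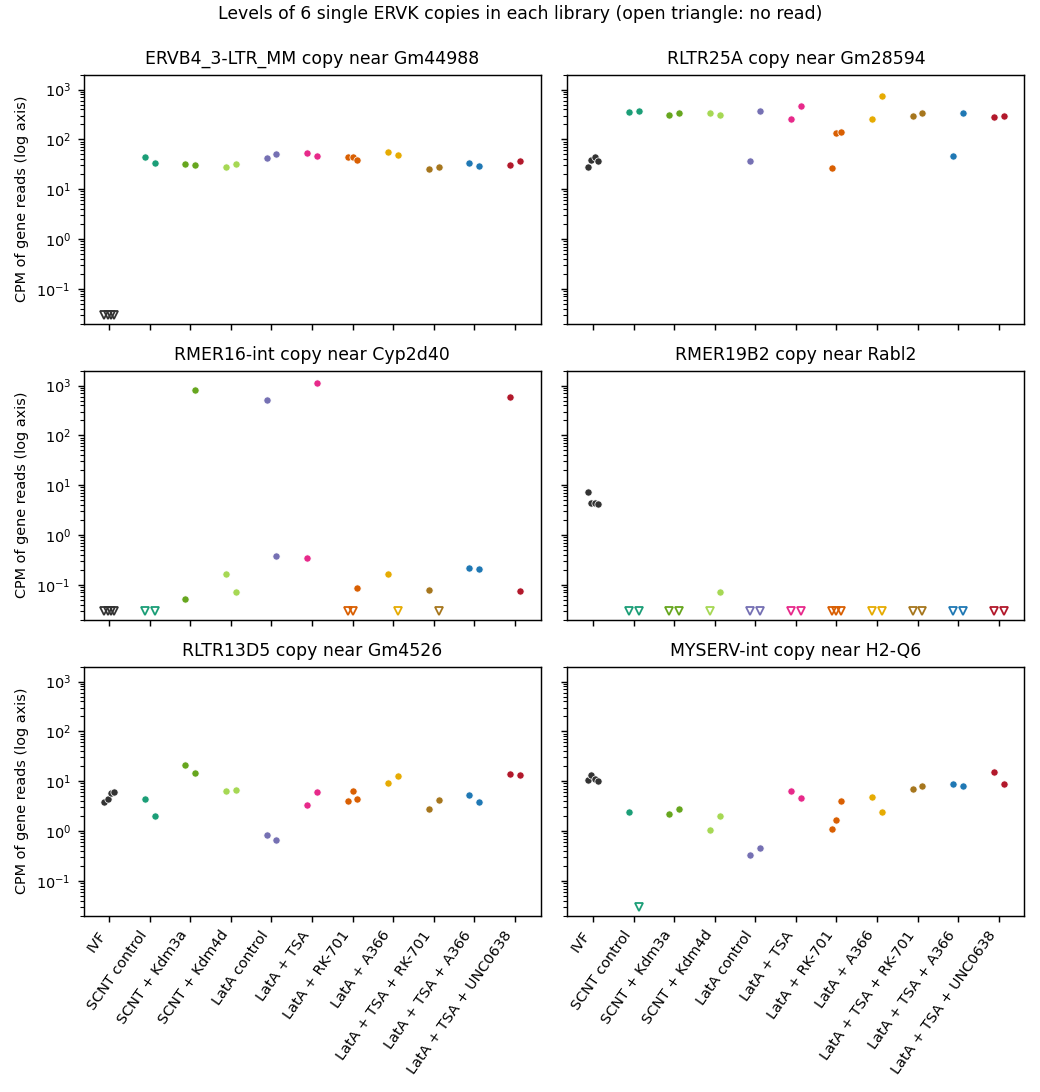
Level in CPM (logarithmic vertical axes; open triangles, no read) of 6 single non-IAP ERVK copies in 11 groups of embryos, 1 point a library. The ERVB4_3-LTR_MM copy is without reads in the 4 IVF libraries alone, the RMER19B2 copy is read in these 4 and in 1 other library, and the RMER16-int copy exceeds 500 CPM in 4 libraries of 4 groups.

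Of 19 genes of the silencing pathway (H3K9 methyltransferases, TRIM28 and its zinc finger partner *Zfp809*, HP1 proteins, DNA methylation and chromatin assembly factors) 1 was higher and 1 lower in control SCNT embryos than in IVF at a fold change over 2, against 15% of all 25794 genes called in either direction. *Ehmt2*, which encodes G9a, read 10.1, 9.32, 9.66 and 11.4 CPM in IVF and 29.4 and 33.6 CPM in control SCNT embryos (1.64 ± 0.21, adjusted p = 2e-06). *Cbx1*, which encodes an HP1 protein, read 47.8 to 75.9 CPM in IVF and 23.8 and 33.9 CPM (−1.04 ± 0.26, adjusted p = 0.0044). In the LatA controls 2 were higher and 1 lower (15.3% of all genes called): *Ehmt2* (30.8 and 30.4 CPM), the chromatin assembly gene *Chaf1b* (72.5 and 54.2 against 28.0 to 36.3 CPM, 1.00 ± 0.18) and *Zfp809* (90.9 and 36.3 against 119 to 148 CPM, −1.06 ± 0.25). *Kdm3a*, TSA and A366 moved none past this call, against 4.16%, 0.318% and 0.12% of all genes. *Sumo2*, a modifier used in this pathway, rose with *Kdm4d*, from 126 and 242 to 389 and 385 CPM (1.07 ± 0.30, adjusted p = 0.033), the only one of the 19 called there (3.14% of all genes). *Zfp809* rose with RK-701 to 120, 124 and 154 CPM (1.05 ± 0.26, adjusted p = 0.014; 3.35% of all genes called). With TSA and RK-701 and with TSA and A366 *Sumo2* and *Smarcad1*, a chromatin remodeller, rose (6.19% and 5.98% of all genes called), and with TSA and UNC0638 *Sumo2* and *Zfp809* rose (6.21%). *Setdb1* and *Trim28* were not called in these 10 comparisons, with 26.8 to 61.4 CPM and 145 to 283 CPM over all libraries.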

How the data were processed

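Per the labels and the methods of the study, RNA from pooled embryos was made into polyadenylated SMART-Seq HT libraries. The authors trimmed read pairs with Trimmomatic, aligned them with STAR to mm10, kept unique alignments and deposited raw counts per gene and per repeat copy from featureCounts (version 1.6.2), without strand and without pairs that overlap more than 1 feature. Unique alignment loses reads of young, near-identical copies, and reads of overlapping or antisense genes cannot be told from those of a copy. Of the columns of values 0 were left unused.

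Autosomal counts were summed by subfamily. Genes gave library sizes and TMM factors (0.883 to 1.16). Subfamilies with a mean of at least 1 read (846), copies with a mean of at least 5 (46280) and genes with a mean of at least 1 (25794) were each fitted over the 25 libraries in 11 groups with the quasi-likelihood test of edgeR 4.0.16 in R 4.3.3, with Benjamini-Hochberg adjustment over all features. Calls needed adjusted p under 0.05, and for copies and genes a fold change over 2. Sums and ratios of repeat groups were tested with limma 3.58.1 on log2 CPM. DESeq2 1.42.0 was an alternative. The steps were tested on simulated data. Folds against groups without reads use a floor of 3 reads over the group, which covers counting error only. Named subfamilies were the 12 with the highest level, the first of each list, and up to 3 called in each direction per comparison with the largest change, given 10 or more reads in every library of the group with the higher level. Named copies followed the same rule with the 10 highest, and the 5 promoter copies were added. Some named copies are not reported here. The set and all lists were chosen with earlier results of these data known.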

Additional observations from a re-analysis of the deposited data

Results flagged for a closer look

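In IVF, 93 levels (of named subfamilies and copies) were examined for a library that stands apart from the other 3, and 9 had one, where chance gives about 1 in 20. Among subfamilies these were MMTV-int, 0.124 CPM in IVF replicate 2 and 0 in the others, RLTR44-int, 15.9 CPM in replicate 3, RLTR50B, 17.03 CPM in replicate 2, RLTR9A3B, 7.13 CPM in replicate 1 as the lowest, and RMER16A2, 20.3 CPM in replicate 1 as the lowest. Among copies they were RMER19B2 on chromosome 15 from 89630335, 7.13 CPM in replicate 1, MMERVK9C_I-int on chromosome 16 from 10225316, 1.39 CPM in replicate 4 as the lowest, RMER6C on chromosome 19 from 50072362, 3.41 CPM in replicate 1, and RMER6A on chromosome 2 from 48852142, 1.49 CPM in replicate 3. The effect of A366 differed with and without TSA: 16 subfamilies passed the interaction test of edgeR, and the interaction for the summed level was −0.50 on the log2 scale (limma, adjusted p = 0.0068). The same test for RK-701 passed in none (24 at an unadjusted p under 0.05). The difference between A366 and RK-701 also changed with TSA, in 6 subfamilies and by −0.39 on the log2 scale for the summed level (limma, adjusted p = 0.013). The interactions of TSA with A366 and with RK-701 share the 2 LatA controls. These controls do not enter the difference between A366 and RK-701.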

How the results depend on the processing

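Counts below are of called subfamilies and changes are of the summed level (log2), in the order of the report, and the cause of a change was not tested unless stated. Of 113 changes of named subfamilies, 791 values under other settings kept direction and call, 270 kept direction alone and 6 turned, and with 1 library left out 305 kept both, 241 lost the call and 1 turned. Scaled to repeat reads (chosen after seeing the data), sums turned to −0.27 in control SCNT embryos and −0.25 in the LatA controls against IVF, 0.21 with *Kdm4d*, 0.058 with RK-701, 0.23 and 0.21 with TSA and either RK-701 or A366, and passed at 0.28 with *Kdm3a* and 0.25 with TSA and UNC0638, with 21 (*Kdm3a*), 2 (TSA), 7 (A366) and 25 (TSA and A366) calls. Direct comparisons, whose alternatives were chosen after seeing the data, then gave 0 calls and −0.074 for *Kdm4d* against *Kdm3a* (1 call without TMM factors), −0.031 for A366 against RK-701, and 6 calls and 0.020 for UNC0638 against RK-701, both with TSA. Without TMM factors the counts were 101 (LatA controls), 12 (*Kdm3a*), 94 (*Kdm4d*), 106, 117 and 43 (TSA with RK-701, A366 and UNC0638), 19 single copies were called with *Kdm3a*, and sums were 0.33 (LatA controls), −0.081 (*Kdm3a*), −0.48 (*Kdm4d*), −0.50 (TSA and RK-701) and −0.18 (TSA and UNC0638). With RLE factors *Kdm4d* gave 42 calls and −0.28, and TSA and RK-701 −0.25. Intergenic copies alone gave 39 and 37 calls against IVF in the 2 control groups (sums 0.036 and −0.12), 11 (*Kdm3a*, 0.33), 4 (TSA), 2 (RK-701, −0.16), 19 (TSA plus RK-701), 17 (TSA plus A366, −0.20) and a sum of 0.26 with TSA and UNC0638. Without the copy with the most reads of each subfamily, 28 (*Kdm4d*, −0.28), 1 (TSA) and 1 (A366) were called, with sums of 0.16 (control SCNT embryos), −0.20 (RK-701), −0.26 (TSA plus RK-701) and −0.0026 (TSA plus UNC0638). Without a filter counts were 12 (*Kdm3a*), 7 (TSA), 23 (RK-701) and 8 (A366), and with a mean of at least 100 reads 12 (*Kdm3a*) and 24 (*Kdm4d*). A fold change over 2 left 21, 21, 2, 6, 5, 10, 18 and 7 (control SCNT embryos, LatA controls, *Kdm3a*, *Kdm4d*, RK-701, TSA with RK-701, A366 and UNC0638). The compared groups alone, with fewer libraries to estimate the spread, gave 2 (*Kdm3a*), 23 (*Kdm4d*, −0.21), 2 (RK-701, −0.24), 0 (A366), 0, 5 and 0 (TSA with RK-701, A366 and UNC0638, −0.26 for A366). Both SCNT controls pooled gave 20 (*Kdm3a*, 0.27), 3 (TSA), 46 (RK-701), 70 (TSA plus RK-701, −0.26) and 89 (TSA plus A366). DESeq2 called 11 (*Kdm3a*), 53 (*Kdm4d*) and 1 (TSA). For single copies a mean of at least 20 reads (chosen after seeing the data) left 272 (control SCNT embryos), 259 (LatA controls), 24 (*Kdm4d*), 29 (RK-701), 11 (A366), 36 (TSA and RK-701) and 83 (TSA and UNC0638).

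Named changes turned in 6 cases with the copies counted: RLTR13D3A1 in the LatA controls (−0.13) and RLTR13B2 with TSA and RK-701 (−0.82) among intergenic copies, and without the leading copy RLTR44A in the LatA controls (0.52), RLTR13B2 with TSA and RK-701 (−0.32), and RMER16A2 with TSA and A366 (−0.047) and with TSA and UNC0638 (−0.12). RLTR25A in the LatA controls turned without their replicate 2 (−0.00932, and 2.71 without replicate 1).

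Leaving out 1 library at a time gave 35 to 74 subfamilies in control SCNT embryos, 29 to 64 in the LatA controls, 1 to 11 with *Kdm3a*, 0 to 4 with *Kdm4d*, 0 to 9 with TSA (9 without LatA control replicate 2, 3 without replicate 1), 0 to 34 with RK-701, 1 to 9 with A366, and 4 to 50, 8 to 62 and 7 to 25 for TSA combined in turn with RK-701, A366 and UNC0638. Single copies gave 152 to 352, 146 to 401, 3 to 18, 2 to 3, 0 to 4, 0 to 75, 1 to 8, 0 to 18, 5 to 41 and 11 to 33 in the same order. Where an arm kept 1 library, it was assumed to vary like the other groups. Sums ranged from 0.17 to 0.24, 0.03 to 0.13, 0.12 to 0.30, −0.24 to −0.17, 0.10 to 0.20, −0.29 to −0.19, 0.02 to 0.15, −0.25 to −0.15, −0.31 to −0.21 and 0.05 to 0.15. Calls of sums ended in control SCNT embryos (without their replicate 1), with RK-701 (without LatA control replicate 2 or RK-701 replicate 1) and with TSA plus A366 (without LatA control replicate 2 or its own replicate 2), and *Kdm3a* passed without its replicate 2 (0.30, adjusted p = 0.015). The direct comparisons gave 0 to 45 calls and sums of −0.51 to −0.33 (*Kdm4d* against *Kdm3a*), 16 to 36 and 0.25 to 0.39 (A366 against RK-701), and with TSA 0 calls and −0.081 to −0.047 (A366 against RK-701) and 0 to 5 and 0.28 to 0.31 (UNC0638 against RK-701), where the call of the sum ended without TSA plus RK-701 replicate 2 or TSA plus UNC0638 replicate 1.

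Libraries with the same replicate number did not deviate together across all groups (median r = −0.0081 over 111 pairs, 9 of them over 0.1). Pairs with different numbers had a median r of 0.0021, a highest r of 0.398, and 15 of 171 over 0.1. No pairing by number was seen over the series, and a median over all groups cannot exclude pairing within some of them. With the replicate number as a block the subfamily counts were 7 (*Kdm4d*), 5 (RK-701), 1 (A366) and 14 (TSA and UNC0638), and single copies 178, 195, 17, 4, 0, 2, 2, 4, 18 and 25 in the order above.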
